A study of Mus musculus with 50 samples.

Results

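The peak lists of 2 Ezh2 point mutants, Ezh2 R685C and Ezh2 Y726D, were compared for SUZ12, a core subunit of Polycomb repressive complex 2 (PRC2), and for acetylation of lysine 27 of histone H3 (H3K27ac). These are 4 of the 50 samples deposited, chosen by the line and the antibody that their labels name: SUZ12 and H3K27ac in each mutant, with 1 library per line and target. The cells are mouse embryonic stem cells (ESCs) derived from E14TG2a and grown in 2i and LIF with serum. Both mutants were made by editing Ezh2 with a single-stranded template in cells whose Ezh1 had been excised with paired guide RNAs, so that both lack Ezh1 and carry a changed Ezh2. The label of the SUZ12 sample of Ezh2 Y726D names only the Y726D change and not the Ezh1 deletion, and it was taken as the same line. The reference groups were the parental WT line (SUZ12 and H3K27me3), Ezh2 KO cells (Ezh2 excised, Ezh1 present) and Ezh1/2 dKO cells (both excised), with SUZ12 and H3K27ac lists for both. H3K27me3 lists of the mutants and RNA-seq of Ezh2 Y726D, with 2 libraries for it and for each of the 3 reference lines, were used beside them. The 50 samples hold no RNA-seq of Ezh2 R685C, and H3K27ac of WT was not analysed here. Lines were picked as edited clones, and how many clones stand behind each line is not given in the sources used here, so that a difference between lines cannot be told apart from a difference between clones or libraries.

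PRC2 methylates lysine 27 of histone H3. EZH2 or its paralog EZH1 provides the catalytic SET domain, while SUZ12 and EED hold the complex together and take part in bringing it to chromatin. In ESCs PRC2 sits at CpG-rich promoters of developmental genes such as the Hox genes, where trimethylation (H3K27me3) accompanies silencing. The same lysine can instead be acetylated by the acetyltransferases P300 and CBP, and acetylation marks active promoters and enhancers, so that a lysine carrying one mark cannot carry the other.

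The mutated codons lie near the end of Ezh2 on chromosome 6 (mm9, minus strand), that of R685C in exon 18 and that of Y726D in exon 19 of 20, of a transcript that encodes 746 amino acids. The reference sequence around each codon is shown 5′ to 3′ on the coding strand, with the codon that was changed in capitals, CGT for the arginine of R685C at chr6:47481994-47482056 and TAC for the tyrosine of Y726D at chr6:47481712-47481774.
Ezh2 R685C codon: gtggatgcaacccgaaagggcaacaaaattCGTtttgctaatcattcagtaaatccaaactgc
Ezh2 Y726D codon: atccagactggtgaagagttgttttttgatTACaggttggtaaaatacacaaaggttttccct

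The lists themselves differ in sequence, and 4 windows of 300 bases at peak summits are shown as examples, not as typical sites. Capitals mark CG dinucleotides, and all are mm9, plus strand. The first is the strongest SUZ12 site found in Ezh2 R685C and not in Ezh2 Y726D, partly in a coding exon of Hoxa11 and overlapping an exon of the antisense transcript Hoxa11as (chr6:52194843-52195142). The second lies between genes, nearest to Tacc3 (chr5:34038064-34038363), in a SUZ12 site of Ezh2 Y726D that had a WT SUZ12 peak and no Ezh2 R685C peak. The third lies between genes nearest to Cbx8 (chr11:118918006-118918305), with H3K27ac in Ezh2 Y726D and SUZ12 in Ezh2 R685C over a WT SUZ12 peak. The last takes in coding exon sequence of Thbs1 (chr2:117940457-117940756), in the strongest SUZ12 site found in Ezh2 Y726D and not in Ezh2 R685C, which had no WT SUZ12 peak. The Hoxa11 window holds 26 CG dinucleotides, the Tacc3 window 40, the Cbx8 window 27 and the Thbs1 window 6.
Hoxa11 site: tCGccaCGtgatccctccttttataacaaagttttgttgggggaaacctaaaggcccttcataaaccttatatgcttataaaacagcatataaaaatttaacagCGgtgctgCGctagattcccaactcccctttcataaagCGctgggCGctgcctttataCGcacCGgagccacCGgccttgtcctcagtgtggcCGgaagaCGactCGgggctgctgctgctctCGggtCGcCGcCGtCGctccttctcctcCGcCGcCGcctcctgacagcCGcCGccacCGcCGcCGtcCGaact
Tacc3 site: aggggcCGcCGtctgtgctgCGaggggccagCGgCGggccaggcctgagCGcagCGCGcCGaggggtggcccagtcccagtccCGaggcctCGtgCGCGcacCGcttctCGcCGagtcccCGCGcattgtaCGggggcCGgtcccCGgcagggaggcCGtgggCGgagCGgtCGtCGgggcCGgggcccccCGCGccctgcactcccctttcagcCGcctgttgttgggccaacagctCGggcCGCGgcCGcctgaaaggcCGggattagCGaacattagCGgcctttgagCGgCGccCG
Cbx8 site: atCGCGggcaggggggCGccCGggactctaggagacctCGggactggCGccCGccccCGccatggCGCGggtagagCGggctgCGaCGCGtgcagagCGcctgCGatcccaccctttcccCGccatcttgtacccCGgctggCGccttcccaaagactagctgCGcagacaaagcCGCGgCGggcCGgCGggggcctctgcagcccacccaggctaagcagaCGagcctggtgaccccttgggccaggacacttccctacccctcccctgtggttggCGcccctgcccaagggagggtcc
Thbs1 site: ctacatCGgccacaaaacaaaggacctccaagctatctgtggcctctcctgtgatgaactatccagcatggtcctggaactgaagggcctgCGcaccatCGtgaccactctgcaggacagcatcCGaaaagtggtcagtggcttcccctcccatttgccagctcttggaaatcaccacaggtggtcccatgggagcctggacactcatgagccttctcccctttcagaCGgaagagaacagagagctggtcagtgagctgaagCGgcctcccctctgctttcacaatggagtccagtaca

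SUZ12 was found over far more of the Hox clusters in Ezh2 R685C than in Ezh2 Y726D, while most of the strongest sites of the genome had a peak in both. Ezh2 R685C had 3231 SUZ12 peaks and Ezh2 Y726D 3366, against 5404 in WT, 1578 in Ezh2 KO and 317 in Ezh1/2 dKO. The peaks of Ezh2 R685C were wider, with a median of 981 bp against 579 bp, and covered 4.68 Mb against 2.36 Mb. Their median -log10 p, the peak caller's measure of enrichment over the local background of the same library, was 17.9 against 14.5. This measure rises with the number of reads, which is unknown for these lists, and so do width and count.

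Of the Ezh2 Y726D SUZ12 peaks, 64.3% overlapped an Ezh2 R685C peak by at least 1 bp (95% Wilson interval 62.7 to 65.9). Of the Ezh2 R685C peaks, 56.4% overlapped an Ezh2 Y726D peak (54.7 to 58.1). These intervals, and all others given for shares, cover counting error only. Overlap followed strength. In the strongest quintile of each list it was 91.3% of Ezh2 R685C peaks and 91.5% of Ezh2 Y726D peaks, and in the weakest quintile 27.2% and 44.8%. Merged into sites, the lists gave 1755 in both mutants, 1408 in Ezh2 R685C alone and 1201 in Ezh2 Y726D alone.

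At the 1733 shared sites with a WT peak, the median number of bases inside peaks was 1347 in WT, 1471 in Ezh2 R685C and 845 in Ezh2 Y726D. The Ezh2 R685C peaks were therefore about as wide as in WT and those of Ezh2 Y726D narrower. Ezh2 R685C had more bases in peaks at 85.0% of the 1755 shared sites and the larger -log10 p at 77.5%. Summits of the 2 lines were a median of 239 bp apart, and 51.8% were within 250 bp of each other.

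The peaks of WT held SUZ12 in 52.4% of cases in Ezh2 R685C (51.0 to 53.7) and in 45.4% in Ezh2 Y726D (44.1 to 46.7). Both shares climbed with the strength of the WT peak, from 21.6% to 94.4% in Ezh2 R685C and from 14.9% to 89.5% in Ezh2 Y726D between the weakest and the strongest quintile. With the Ezh2 R685C list reduced to its strongest peaks until both lists covered the same number of bases, a setting chosen after the lists were seen, its share was 16.2% and the order turned. With peaks of p at most 1e-20 in each list, the shares were 46.5% in Ezh2 R685C and 19.8% in Ezh2 Y726D. H3K27me3 separated the lines more sharply, with a peak at 89.3% of WT SUZ12 peaks in Ezh2 R685C and at 0.296% in Ezh2 Y726D.

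**Figure D1:**
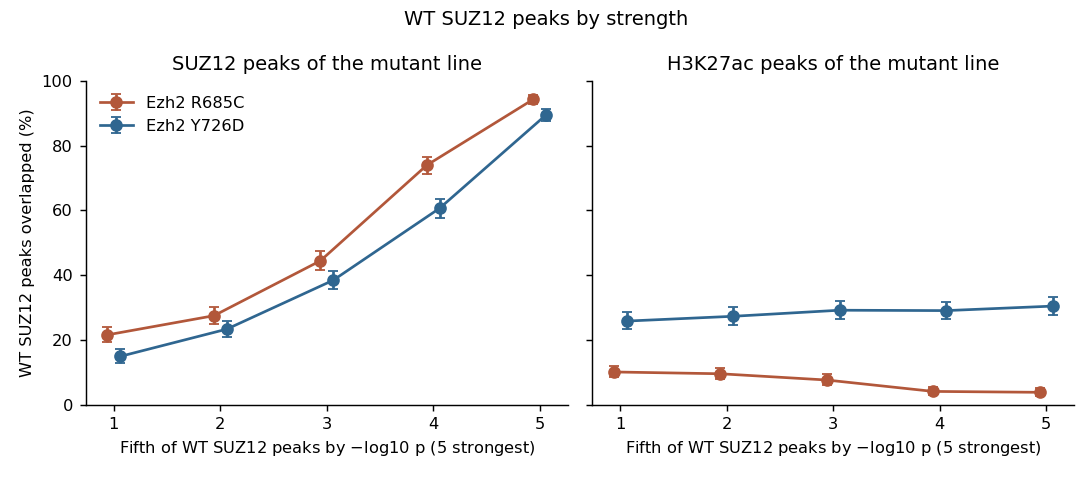
Share of WT SUZ12 peaks (y axis, percent) overlapped by SUZ12 peaks (left) and H3K27ac peaks (right) of each mutant, in quintiles of the WT peaks by strength (x axis, 5 strongest), with 95% Wilson intervals. SUZ12 climbs with strength in both mutants, while H3K27ac falls in Ezh2 R685C from 10.1% to 3.79% and lies between 25.8% and 30.4% in the outer quintiles of Ezh2 Y726D.

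H3K27ac at these same sites was more frequent in Ezh2 Y726D than in Ezh2 R685C. Of the WT SUZ12 peaks, 28.3% (27.2 to 29.6) carried an H3K27ac peak in Ezh2 Y726D and 7.01% (6.36 to 7.73) in Ezh2 R685C. The shares were 3.96% in Ezh2 KO and 9.23% in Ezh1/2 dKO, whose H3K27ac lists were shorter. With each of the 4 lists reduced to its 17618 strongest peaks, the shares were 12.97% in Ezh2 Y726D, 2.76% in Ezh2 R685C, 2.66% in Ezh2 KO and 9.23% in Ezh1/2 dKO. With peaks of p at most 1e-20, they were 8.08% in Ezh2 Y726D and 1.42% in Ezh2 R685C. The gap was present on each of the 20 chromosomes with WT SUZ12 peaks, with 13.8% to 38.3% per chromosome in Ezh2 Y726D and 2.98% to 12.4% in Ezh2 R685C. The H3K27ac lists as a whole were alike in number of peaks, 41185 in Ezh2 R685C and 40829 in Ezh2 Y726D. They differed in extent, with 49.9 Mb covered in Ezh2 R685C and 35.0 Mb in Ezh2 Y726D, and median widths of 843 and 616 bp.

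By state, 1207 WT SUZ12 peaks had H3K27ac in Ezh2 Y726D alone, 325 in both mutants, 54 in Ezh2 R685C alone and 3818 in neither. The gap was present with and without SUZ12 in the mutants. Where both mutants had SUZ12, 27.3% had H3K27ac in Ezh2 Y726D and 2.41% in Ezh2 R685C, and where neither had it, 31.7% and 11.5%. Within Ezh2 Y726D itself, H3K27ac was found at 29.9% of WT sites with SUZ12 and 27.1% of those without. In Ezh2 R685C, H3K27ac was found at 3.32% of the WT SUZ12 peaks with an H3K27me3 peak of that line and at 37.9% of the 578 without one. Ezh2 Y726D had H3K27ac at 25.1% and 55.5% of the same peaks.

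SUZ12 and H3K27ac peaks of the same line overlapped often in Ezh2 Y726D and seldom in Ezh2 R685C. In Ezh2 Y726D, 979 SUZ12 peaks overlapped an H3K27ac peak, 29.1% of the list (27.6 to 30.6) and 18.8% of its bases. In Ezh2 R685C it was 59 peaks, 1.83% (1.42 to 2.35) and 0.533% of the bases. Overlap in a list of bulk cells does not say that both were on the same molecule, and a mixture of cells or alleles cannot be told apart from it.

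Across the genome, 69.2% of Ezh2 Y726D H3K27ac peaks overlapped one of Ezh2 R685C, and 56.2% the other way. The merged lists gave 21935 shared sites, 18020 in Ezh2 R685C alone and 12568 in Ezh2 Y726D alone. Sites in Ezh2 Y726D alone were within 10 kb of a WT SUZ12 peak in 19.3% of cases, those in both in 4.97% and those in Ezh2 R685C alone in 2.35%. At shared sites the -log10 p was the larger in Ezh2 R685C at 70.2% of all sites, and at 76.5% of those at a transcription start site (TSS) without WT SUZ12. It was the larger in Ezh2 R685C at 29.3% of the 324 shared sites with a WT SUZ12 peak (24.6 to 34.5), where the median ratio of Ezh2 R685C to Ezh2 Y726D was 0.776 against 1.36 at the other TSS sites. The direction at Polycomb sites was thus opposite to that of the rest of the shared list.

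Promoters with SUZ12 in WT had H3K27ac peaks more often in Ezh2 Y726D than in Ezh2 R685C. A promoter was given a peak when one lay within 1 kb of a TSS of a protein-coding gene, and was called a Polycomb promoter when WT had a SUZ12 peak there (2912 of 22359 genes). Of Polycomb promoters, 35.4% (33.7 to 37.2) had H3K27ac in Ezh2 Y726D and 11.6% (10.5 to 12.9) in Ezh2 R685C, 732 in Ezh2 Y726D alone and 40 in Ezh2 R685C alone. With peaks of p at most 1e-20 the shares were 10.4% and 2.50%. Over all promoters, 6.84% had H3K27ac in Ezh2 Y726D alone and 6.74% in Ezh2 R685C alone. Of the promoters without WT SUZ12, 41.4% had H3K27ac in Ezh2 Y726D and 44.8% in Ezh2 R685C, an order that turned with equal covered bases, when Ezh2 R685C had 33.5%. Of the 732 promoters, 58.1% had SUZ12 in Ezh2 Y726D and 55.1% in Ezh2 R685C, and 93.9% had H3K27me3 in Ezh2 R685C. These shares were near those of all 2912 Polycomb promoters, which were 58.2%, 54.9% and 91.5%. In Ezh1/2 dKO 22.8% of the 732 had H3K27ac, and in Ezh2 KO 2.73%.

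The 15 loci that the study itself showed, chosen by it from these lines and so not independent, all had SUZ12 in Ezh2 R685C and 14 had it in Ezh2 Y726D, where 7.35% and 8.86% of all promoters did. Their -log10 p ran from 13.6 to 147 in Ezh2 R685C (median 104) and from 11.03 to 66.9 in Ezh2 Y726D (median 23.6). H3K27ac was found at 8 of the 15 promoters in Ezh2 Y726D and at none of these 15 in Ezh2 R685C or Ezh2 KO, where 40.6% of all promoters in Ezh2 Y726D and 40.5% in Ezh2 R685C had a peak. Hoxa11 had a SUZ12 -log10 p of 118.7 in WT and 98.2 in Ezh2 R685C and no SUZ12 peak in Ezh2 Y726D, where its H3K27ac was 47.5. At Cdx2, a regulator of trophectoderm and the posterior body axis, SUZ12 was 111 in Ezh2 R685C and 25.2 in Ezh2 Y726D, and H3K27ac was 15.0 in Ezh2 Y726D. Both changes thus met at Hoxa11, while Cdx2 kept a SUZ12 peak beside a weaker H3K27ac peak. Fgfr3, a receptor for fibroblast growth factors, had SUZ12 of 120 and 66.9 and no H3K27ac in either mutant.

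Hox genes, which set position along the body axis, had the widest gap between the lines among the gene families examined. Of 39 Hox promoters, 36 had SUZ12 in Ezh2 R685C and 20 in Ezh2 Y726D, 16 of them in Ezh2 R685C alone and none of the 39 in Ezh2 Y726D alone. Over all promoters, 1.82% had SUZ12 in Ezh2 R685C alone and 3.34% in Ezh2 Y726D alone. H3K27ac was found at 23 in Ezh2 Y726D, 2 in Ezh2 R685C, 2 in Ezh2 KO and 12 in Ezh1/2 dKO, or 59.0% in Ezh2 Y726D and 5.13% in Ezh2 R685C, where 40.6% and 40.5% of all promoters had a peak. Hoxc12 had H3K27ac in all 4 mutant lines. It had SUZ12 of 81.4 in WT and 10.8 in Ezh2 R685C, which had no H3K27me3 peak at its promoter. By cluster, H3K27ac was at 9 of 9 Hoxc promoters, 7 of 11 Hoxa, 6 of 9 Hoxd and 1 of 10 Hoxb promoters in Ezh2 Y726D. The Hoxb promoter with a peak was Hoxb1 (10.3).

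Whole clusters showed the same. SUZ12 peaks covered 57.0 kb of the Hoxa cluster in WT, 73.6 kb in Ezh2 R685C and 9.15 kb in Ezh2 Y726D. In Hoxd it was 45.3, 56.6 and 9.99 kb, and in Hoxb 48.4, 73.9 and 8.24 kb. Hoxc was the cluster where Ezh2 R685C was below WT, with 32.1 against 48.2 kb, and Ezh2 Y726D kept 1.76 kb. H3K27ac covered 37.8 kb of Hoxa in Ezh2 Y726D and 0.569 kb in Ezh2 R685C, 30.9 and 8.33 kb of Hoxc, 22.3 and 0 kb of Hoxd, and 9.25 and 2.90 kb of Hoxb. No H3K27me3 peak of Ezh2 Y726D fell in any of the 4 clusters.

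**Figure D2:**
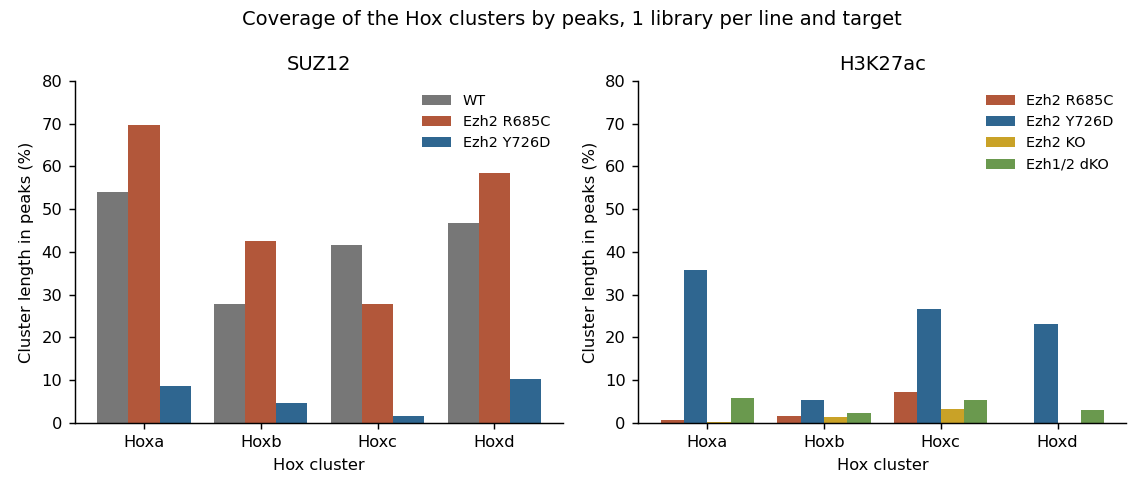
Percent of the length of each Hox cluster inside peaks (y axis) for SUZ12 (left: WT, Ezh2 R685C, Ezh2 Y726D) and H3K27ac (right: the 4 mutant lines), 1 library per bar and no error bars. SUZ12 of Ezh2 R685C covers 69.7% of Hoxa against 8.67% in Ezh2 Y726D, and H3K27ac 0.539% against 35.8%.

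Other homeobox families kept more SUZ12 in Ezh2 Y726D than the Hox genes did. Of 32 Paired, LIM and sine oculis homeobox genes, 28 had SUZ12 in Ezh2 R685C and 26 in Ezh2 Y726D, and 3 and 12 had H3K27ac. Of 30 NK and Dlx genes, 27 and 23 had SUZ12, and H3K27ac was at 6 in Ezh2 Y726D and at none of the 30 in Ezh2 R685C. Nkx2-5, a heart regulator, lacked SUZ12 in Ezh2 Y726D (84.5 in Ezh2 R685C) and had H3K27ac of 16.4 there, whereas Nkx2-1, a lung and thyroid regulator, lost SUZ12 without an H3K27ac peak.

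Of 42 forkhead genes, 15 had SUZ12 in both mutants, 4 in Ezh2 R685C alone and 4 in Ezh2 Y726D alone, and H3K27ac was at 13 in Ezh2 R685C and 18 in Ezh2 Y726D. Over all promoters H3K27ac was at 40.5% and 40.6%, and the Ezh2 Y726D shares of forkhead (42.9%), FGF (40.9%) and Sox genes (38.9%) were near this level. Of the 6 Gata genes, 5 had SUZ12 in both and 3 had H3K27ac in Ezh2 Y726D alone (Gata3 10.5, Gata4 13.1, Gata6 11.3), all near the threshold of 10. T-box genes had H3K27ac at 1 of 16 in Ezh2 R685C, Tbx3, and 5 in Ezh2 Y726D, bHLH genes at 1 and 4 of 28 and Sox genes at 4 and 7 of 18. Among secreted signals, FGF ligands had H3K27ac at 3 and 9 of 22, Wnt ligands at 1 and 3 of 19, and BMP and GDF ligands at 4 and 7 of 21. Fgf3, Fgf5 and Fgf15 had SUZ12 in both mutants and H3K27ac in Ezh2 Y726D alone (21.6, 17.0 and 14.5). Fgf21 was an exception, with H3K27ac of 23.5 in Ezh2 R685C and no peak in Ezh2 Y726D.

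**Figure D3:**
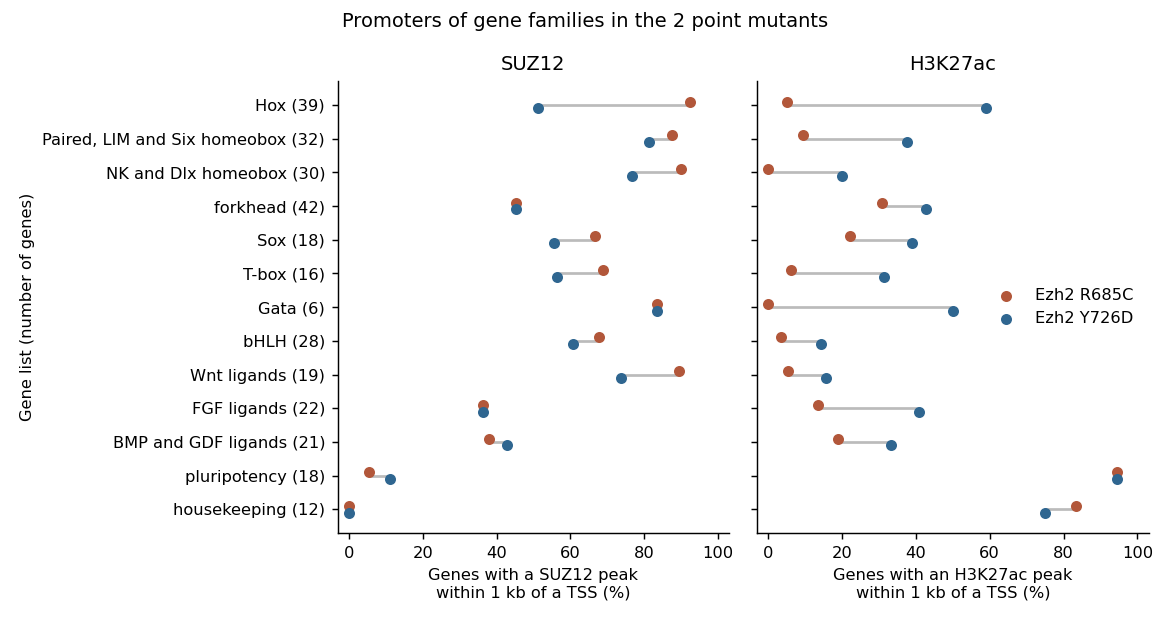
Percent of the genes of each list (rows, number of genes in brackets) with a SUZ12 peak (left) or an H3K27ac peak (right) within 1 kb of a TSS in Ezh2 R685C and Ezh2 Y726D. Hox genes have the widest gap in both panels (92.3% and 51.3% for SUZ12, 5.13% and 59.0% for H3K27ac), and pluripotency genes show 94.4% for H3K27ac in both lines.

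The cells of both lines carried the marks of ESCs. H3K27ac was at 17 of 18 pluripotency promoters in each mutant and missing at Dppa3 in both, with -log10 p at Pou5f1 of 136 in Ezh2 R685C and 110 in Ezh2 Y726D, at Nanog of 72.4 and 43.2 and at Klf4 of 26.8 and 45.5. Among fibroblast markers, the cells of a feeder layer, 1 of 8 (Thy1, 10.5) had a peak in Ezh2 Y726D and none of the 8 in Ezh2 R685C. Of 12 housekeeping genes, 10 and 9 had H3K27ac. Of 12 PRC2 subunits, 9 and 10 had H3K27ac, with Phf1 (17.0) in Ezh2 Y726D alone. Ezh1 had no peak in either mutant, nor in Ezh2 KO, where the gene is intact. Of 6 acetyltransferases and demethylases of H3K27, 5 had H3K27ac in each. For scale, H3K27ac was at 40.5% of all promoters in Ezh2 R685C and at 40.6% in Ezh2 Y726D.

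Named by strength, the Polycomb promoters with H3K27ac in Ezh2 Y726D alone were led by Sema5b, a semaphorin of axon guidance (65.5), followed by C530025M09Rik and Tmem90b, which share a peak (59.9), and by Hoxa11 and Hoxa7 (47.5 and 46.5). All 5 had H3K27ac in Ezh1/2 dKO as well (17.9 to 36.8) and none of the 5 in Ezh2 KO. Those in Ezh2 R685C alone were led by Gm17379 on chromosome X, whose peak lies in the gene Mid1 (47.8), 9630014M24Rik and Spry4 (35.4, a shared peak), Etv5 (28.4) and Arid5a (25.96). Spry4 and Etv5 are feedback targets of FGF signalling. Spry4, Etv5 and Arid5a had no SUZ12 peak in either mutant, while Gm17379 had SUZ12 in both (21.7 and 24.0).

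The strongest SUZ12 sites of each line alone also differed in kind. The strongest in Ezh2 R685C alone were at Hoxa11, Fam84a, Hoxb3, 5730596B20Rik and Hoxa9 (85.4 to 98.2), were 3368 to 9203 bp wide, and had SUZ12 and H3K27me3 in WT. The strongest in Ezh2 Y726D alone were at Thbs1, Mgp, Tpm1, Igfbp5 and Lox (61.2, 54.4, 48.9, 29.1 and 28.0), were 314 to 496 bp wide, and none of these 5 had SUZ12 or H3K27me3 in WT. These 5 genes encode extracellular matrix or contractile proteins or their partners, and their sites lay 2.76 to 22.5 kb from a TSS with 70.4% to 100% of their bases in exons. The Thbs1 site ended on the last base of an exon and began 16 bp from the start of another, while the edges of the other 4 sites were 68 to 2120 bp from the nearest like exon edge. RNA of Mgp was 0 and 0.963 normalised reads in WT and 0.892 and 1.12 in Ezh2 Y726D, and that of Tpm1 598 and 330 against 424 and 449. These 5 sites were not typical of the 1201 in Ezh2 Y726D alone. Of the 1201, 70.8% had a TSS inside or within 1 kb and 62.3% had a WT SUZ12 peak. Among sites over 1 kb from a TSS, the median share of bases in exons was 0% for either line alone. Where the 5 sites come from was not tested.

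More broadly, no WT SUZ12 peak was found at 453 of the 1201 sites in Ezh2 Y726D alone and at 381 of the 1408 in Ezh2 R685C alone. Sites that also lacked H3K27me3 both in WT and in Ezh2 R685C numbered 294 and 8. That filter bears on the lines unequally, as H3K27me3 of Ezh2 R685C was at 95.9% of the 1408 sites and 65.5% of the 1201. Of these 294, 203 were at a TSS, 187 (63.6%) overlapped H3K27ac of Ezh2 R685C and 174 (59.2%) H3K27ac of Ezh2 Y726D itself. These sites lay mostly at promoters, and most had H3K27ac in each mutant.

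Base composition set the SUZ12 lists apart as well. In the 300 bases at the summit, sites in Ezh2 R685C alone had a median GC content of 56.3% and 12 CG dinucleotides, shared sites 63.3% and 22, and sites in Ezh2 Y726D alone 66.7% and 25. Of the WT SUZ12 peaks lowest in GC, 49.3% had SUZ12 in Ezh2 R685C and 18.1% in Ezh2 Y726D, and of those highest in GC 51.4% and 62.9%. The order of the lines for SUZ12 thus turned in the upper 2 quintiles. H3K27ac at WT SUZ12 peaks was more frequent in Ezh2 Y726D in all 5 quintiles, 19.9% against 6.85% in the lowest and 30.8% against 8.79% in the highest. GC content moves with the line in the H3K27ac lists too (46.7% at sites in Ezh2 R685C alone, 52.7% in Ezh2 Y726D alone), and its part in the results above was not tested.

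**Figure D4:**
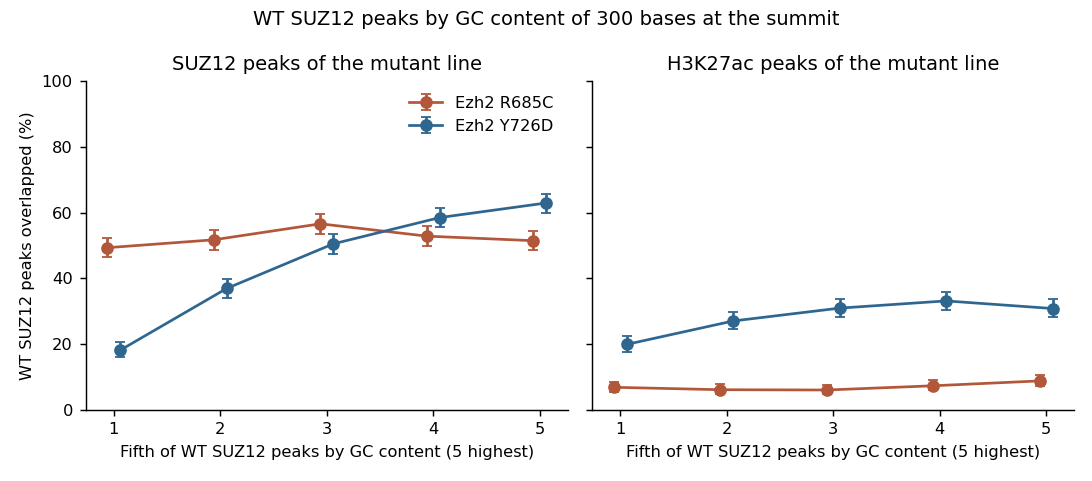
Share of WT SUZ12 peaks (y axis, percent) overlapped by SUZ12 (left) and H3K27ac (right) peaks of each mutant in quintiles by GC content of the 300 bases at the WT summit (x axis, 5 highest), with 95% Wilson intervals. For SUZ12 the lines cross between the third and the fourth quintile, and for H3K27ac Ezh2 Y726D is above Ezh2 R685C in all 5.

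Motifs at H3K27ac sites over 5 kb from a TSS were compared by exact matches on both strands of the 300 bases at the summit. The octamer ATGCAAAT, bound by POU factors, was in 1.77% of sites in Ezh2 R685C alone, 1.37% of shared sites and 0.995% of sites in Ezh2 Y726D alone (1.42% of all 32513). The Sox motif AACAAAG was in 9.27%, 7.82% and 6.41% (8.0% of all) and the E-box CAGCTG in 14.9%, 16.9% and 20.02% (16.9% of all). The first 2 are rich in A and T and the last in G and C, and the median GC content of the classes was 46.0%, 48.7% and 51.3%. A match is a description and not a site of binding.

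Chromosomes 12 and X had fewer Ezh2 Y726D than Ezh2 R685C peaks. The ratio of Ezh2 Y726D to Ezh2 R685C peaks was 0.588 for SUZ12 and 0.668 for H3K27ac on chromosome 12, and 0.476 and 0.702 on X, against 0.864 to 1.39 and 0.854 to 1.13 on the other 18 autosomes. Chromosome 12 held 2.39% of the H3K27ac peaks of Ezh2 Y726D and 3.55% to 3.81% of those of the other 3 mutant lines. On X the H3K27ac share of Ezh2 Y726D, 1.29%, lay between the 1.82% of Ezh2 R685C and the 1.23% of Ezh2 KO, with 0.812% in Ezh1/2 dKO, while its SUZ12 share was 0.891% against 1.95% in Ezh2 R685C and 2.18% in WT. In RNA-seq the median log2 fold change of Ezh2 Y726D over WT was -0.30 on chromosome 12, -0.04 on X and -0.01 over all genes. The Y-linked gene Eif2s3y, named after its values were seen, was at 747 and 775 normalised reads in WT and 1.78 and 3.36 in Ezh2 Y726D. In Ezh1/2 dKO it was at 578 and 683. H3K27ac peaks on the Y chromosome numbered 3 in Ezh2 R685C, 1 in Ezh2 KO, 0 in Ezh2 Y726D and 0 in Ezh1/2 dKO. Peak counts this small cannot tell the lines apart. In RNA-seq, all 4 tested genes of the Y chromosome were called lower in Ezh2 Y726D than in WT, against 1.06% of all genes tested. Their median log2 fold change was -8.24. The number of copies of these chromosomes was not tested. Without chromosome 12, 1 of the 12 shares compared moved beyond its interval, and it is given in the closing section.

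Among the genes tested, RNA of those with Polycomb promoters was more often higher than lower in Ezh2 Y726D than in WT. The share called higher was largest where H3K27ac was found in Ezh2 Y726D alone. Ezh1, the deleted gene, was at 226.8 and 377 normalised reads in WT and at 24.1 and 15.7 in Ezh2 Y726D (log2 fold change -3.84 ± 0.35 SE, limma adjusted p = 0.0023, n = 2 and 2), and Ezh2 was at 598 and 546 against 422 and 613. In Ezh1/2 dKO Ezh1 was at 14.01 and 20.4 and Ezh2 at 0.824 and 1.78, and Ezh2 was at 1.05 and 0.968 in Ezh2 KO. Against WT, 1.66% of 13872 genes tested were called higher and 1.06% lower (limma, adjusted p under 0.1 and log2 fold change of at least 1). Of the 541 tested genes with Polycomb promoters acetylated in Ezh2 Y726D alone, 74 were called higher (13.7%) and 1 lower, with a median log2 fold change of 0.69. Of the 808 acetylated in neither mutant, 39 (4.83%) were higher and the median was 0.49, and of the 272 acetylated in both 13 were higher and 9 lower, with a median of 0.20. In these 3 classes 541 of 720, 808 of 1824 and 272 of 296 genes passed the filter on the mean of all 8 libraries. Genes near 0 in WT pass it mainly where a mutant line is high, so the medians and the excess of higher calls may partly be set by it. Genes without WT SUZ12 that had H3K27ac in Ezh2 R685C alone gave 2 higher and 24 lower (1.89%) of 1273. Those with H3K27ac in Ezh2 Y726D alone gave 32 higher (4.97%) and 3 lower of 644, and those with it in neither 47 higher and 44 lower (1.88%) of 2340. Whether the replicates were separate cultures is not stated, and p-values measure the spread between these libraries. Without Ezh2 Y726D replicate 2, 122 genes were called higher and 95 lower in place of 230 and 147, without replicate 1 331 were called lower, and with WT and Ezh2 Y726D fitted alone 20 and 12 were called.

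Of 36 Hox genes with RNA values, 20 passed the filter on the mean of all 8 libraries and were tested. Of these, 10 were called higher and none of the 20 lower, where 1.66% and 1.06% of all 13872 genes tested were. The median log2 fold change of the 20 Hox genes was 2.90 (2.77 with genes at 0 in WT set to the limit of 3 reads). A gene near 0 in WT passes this filter only where mutant libraries are high, so the direction and the median are partly set by it. Hoxa7 was at 5.34 and 6.74 normalised reads in WT and 106 and 232 in Ezh2 Y726D (log2 fold change 4.49 ± 0.49 SE, limma adjusted p = 0.0059). Hoxa10 was at 2.67 and 0 against 424 and 493, and Hoxa9 at 0 and 2.89 against 145 and 210. Hoxa11 was at 0 in both WT libraries and at 44.6 and 71.6 in Ezh2 Y726D (limma adjusted p = 0.0093). Reads were counted without strand, so those of Hoxa11 cannot be told apart from those of its antisense transcript. In Ezh1/2 dKO, whose Hoxa11 promoter had a weaker H3K27ac peak (18.9), Hoxa11 was at 26.4 and 17.8.

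Elsewhere in the fixed lists the calls were few, where 1.66% of all 13872 genes tested were called higher and 1.06% lower. Wnt5a rose from 6.67 and 1.93 to 69.5 and 69.4 normalised reads and Olig3 from 0 in both libraries to 16.0 and 24.6. Fgf15 rose from 16.0 and 7.70 to 111 and 115, and Bmp4 from 313 and 373 to 736 and 688. Gata3 rose from 50.7 and 21.2 to 124 and 107. Fgf21, with H3K27ac in Ezh2 R685C and not in Ezh2 Y726D, fell from 12.01 and 2.89 to 0 in both libraries. Of 18 pluripotency genes, 1 was called, Dppa3, which fell from 176 and 106 to 21.4 and 20.1 (limma adjusted p = 0.011). In bulk RNA, fewer cells that express a gene cannot be told apart from less RNA per cell. Fibroblast markers summed to 45.3 and 58.7 in WT and 126 and 187 in Ezh2 Y726D, with 3 of 7 at 0 in both Ezh2 Y726D libraries, and of the 2 tested Thy1 was called higher. Their part in the result was not tested.

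**Figure D5:**
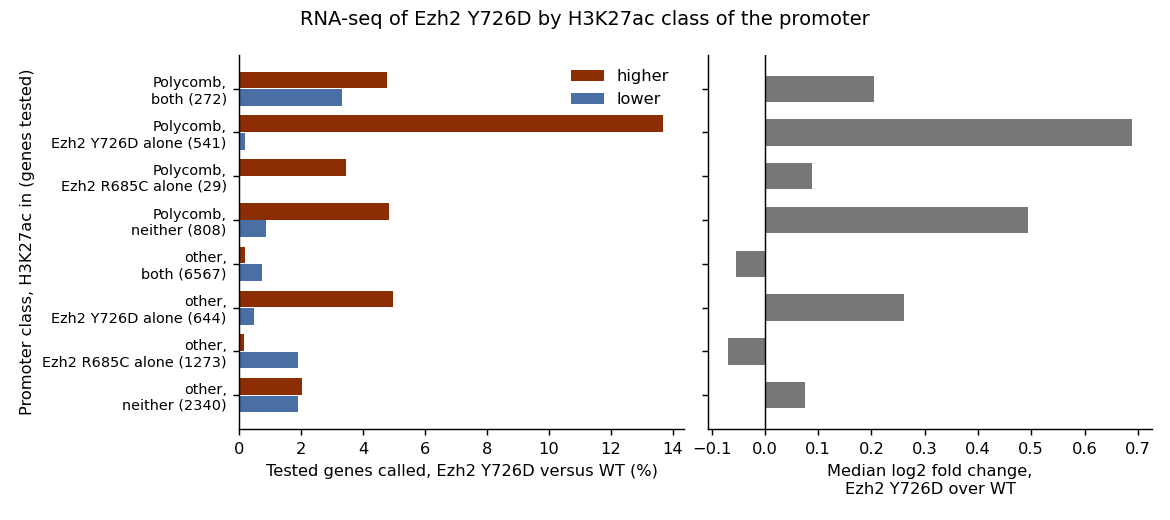
RNA-seq of Ezh2 Y726D against WT by promoter class (rows: Polycomb or other promoters, and the mutants in which they had H3K27ac, with the number of genes tested), as the percent of genes called higher or lower (left) and the median log2 fold change (right). Polycomb promoters acetylated in Ezh2 Y726D alone have the largest share called higher, 13.7%, and the largest median, 0.69, of the 8 classes.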

How the data were processed

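Peaks were compared between 4 ChIP-seq lists, SUZ12 and H3K27ac of Ezh2 R685C and Ezh2 Y726D, with 8 further lists as references. Per the labels, reads were aligned to mm9 with Bowtie, duplicates removed with Picard and peaks called with MACS2. The methods add that only unique alignments were kept and, in one place, give a p threshold of 1e-10 (elsewhere another), and each of the 4 deposited lists holds no -log10 p under 10. The deposited values are the -log10 p of each peak and its fold enrichment, a ratio to the local background of the same library. Lists were used as deposited, on chromosomes 1 to 19, X and Y. The spike-in scaling of the study does not enter them and the depth behind them is unknown. Promoters are from the GENCODE annotation of mm9 (22359 protein-coding genes) and sequences from the mm9 genome. With 1 library per line and target no test between lines was possible, and shares have 95% Wilson intervals.

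For RNA-seq, the deposited table gives, as a signal, each gene's read count in each library after the authors' DESeq2 normalisation, which followed TopHat alignment, duplicate removal and unstranded HTSeq-count counting. All values were whole reads within 0.01 after division by the smallest step (3604120 to 5181550 reads per library). They were tested with limma 3.58.1 in R 4.3.3 (trend, log2 of the normalised count plus 1, mean of at least 5, 8 libraries, Benjamini-Hochberg adjustment), with edgeR 4.0.16 and DESeq2 1.42.0 as alternatives on the recovered reads. In simulated data for Ezh2 Y726D versus WT (13844 genes), 92 of 100 changes of 1.5 on the log2 scale and 100 of 100 of 3 were recovered. False calls in these data numbered 9. Overlaps were tested on simulated intervals, where 700 of 700 planted overlaps were found. Python 3.11.15, numpy 2.4.6, pandas 2.3.3 and matplotlib 3.10.9 were used.

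Named genes are those of the loci shown by the study, the pluripotency and PRC2 lists, family members that differ between the mutants, and the 5 strongest promoters and SUZ12 sites of each mutant alone. Members and lists were chosen with earlier results of these data known. Some genes of the lists are not reported by name here.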

Additional observations from a re-analysis of the deposited data

How the results depend on the processing

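Depth is unknown and each line has 1 library per target, so widths, counts and -log10 p of the lines cannot be told apart from differences in depth or immunoprecipitation. H3K27ac at WT SUZ12 peaks and at Polycomb promoters was more frequent in Ezh2 Y726D in all 6 settings run for each, 4.04 to 10.3 times and 2.37 to 7.81 times. SUZ12 at WT peaks and H3K27ac at other promoters were more frequent in Ezh2 R685C in 5 of 6 settings each. The exception in both was the setting of equal covered bases, added after the lists were seen. At Polycomb promoters the order for SUZ12 was the other one in the lists as deposited, with 58.2% in Ezh2 Y726D and 54.9% in Ezh2 R685C. Causes were not tested beyond what each setting removes.

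Of 86 alternative values, 49 stayed within the interval or within 1.5 times the count and 37 moved. With peaks of p at most 1e-20, Ezh2 Y726D by Ezh2 R685C and the converse were 78.8% and 35.6% for SUZ12 and 77.5% and 51.1% for H3K27ac. WT SUZ12 peaks then held SUZ12 in 46.5% (Ezh2 R685C) and 19.8% (Ezh2 Y726D) and H3K27ac in 1.42% and 8.08%, Polycomb promoters had H3K27ac in 2.50% and 10.4%, and other promoters in 31.5% and 21.8%. Requiring 50% of the shorter peak gave 62.2%, 53.7%, 67.9% and 55.1% for the 4 overlaps between mutants and 50.9% of WT peaks with Ezh2 R685C SUZ12. Without chromosome 12, 56.8% of Ezh2 R685C H3K27ac peaks were overlapped. Within 5 kb of a TSS, H3K27ac was at 17.999% and 42.6% of Polycomb and 49.0% and 46.2% of other promoters. With equal covered bases, the overlaps were 27.04% and 90.8% for SUZ12 and 48.8% and 82.4% for H3K27ac, WT SUZ12 peaks held Ezh2 R685C SUZ12 in 16.2% and H3K27ac in 2.76%, and H3K27ac of Ezh2 R685C was at 4.53% of Polycomb and 33.5% of other promoters.

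For RNA-seq, 230 genes were called higher and 147 lower. A fit of WT and Ezh2 Y726D alone called 20 and 12. Leaving out 1 library gave 122 to 242 higher and 95 to 331 lower, with 122 and 95 without Ezh2 Y726D replicate 2 and 331 lower without replicate 1. The correlation of deviations between same-numbered libraries was 0.22, 0.24 and 0.29 among the 3 mutant lines, and -0.07, -0.14 and -0.41 between WT and these lines, so that the numbers as given did not pair WT with Ezh2 Y726D. With the number as a replicate block, 200 and 130 genes were called, and with the WT numbers crossed, added after the negative correlation was seen, 470 and 278.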
